A study of Harpegnathos saltator with 35 samples.

Results

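The genes period (per, LOC105185903) and clockwork orange (cwo, LOC105187138), 2 of the 14001 genes in the deposited expression table, were followed through 35 RNA-seq libraries of cultured brain neurons from Harpegnathos saltator, an ant. Both genes were selected on their measured levels in these same libraries, so their differences between groups are given as a description, with standard errors and without tests. Cells from dissociated central brains had been kept for 5 days in 2 µM of 20-hydroxyecdysone (20E, the steroid hormone that triggers moulting) or in 2 µM of juvenile hormone III (JH3, the sesquiterpenoid hormone of the corpora allata). The medium was then exchanged for one with 2 µM of the other hormone for 30 min, 6 h or 24 h, or, as each culture's baseline, for one with only the solvent DMSO for 30 min. All cultures shared a medium with B27, insulin, transferrin, selenium and progesterone, and early in culture with an extract of honeybee pupae. The 20E baseline had 5 libraries, and the switch to JH3 had 3 at 30 min, 5 at 6 h and 3 at 24 h. The JH3 baseline had 4 libraries, and the switch to 20E had 5 at 30 min, 6 at 6 h and 4 at 24 h. Replicates were independent cultures, per the series' design text.

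In Drosophila, the circadian clock of neurons is a loop of transcription in which the proteins Clock (Clk) and cycle (cyc) drive genes whose products later shut them off. Period is one of those products and represses Clk and cyc. Clockwork orange is a basic helix-loop-helix Orange protein that binds the same E-box elements as Clk and cyc and represses from them. Ants and bees lack the timeless partner that Period has in Drosophila and carry a mammalian-type cryptochrome in its place. 20E acts through the ecdysone receptor and its partner usp, with E75 as a classical early target, and Kr-h1 is the standard target gene of juvenile hormone.

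The baselines were taken 30 min after a change of medium and there was no DMSO group at 6 h or 24 h. Within one switch, the incoming hormone, the loss of the first hormone and time in fresh medium therefore cannot be told apart, while the difference between the switches compares cultures at the same time. The hour of day at which cultures were harvested is not given in the sources used here. The libraries came from 3 sequencing runs (A, B and C), and run was a term in the fit. All libraries of JH3 for 24 h were sequenced in run C, which held 1 library of the 20E baseline and none of the JH3 baseline. The libraries held between 5937935 and 22650336 reads, recovered from the steps of the deposited FPKM values (fragments per kilobase of gene, scaled by a size factor of each library). The median Pearson r of a library with the others of its group lay between 0.932 and 0.985. In bulk RNA, fewer cells of a type and less RNA per cell cannot be told apart.

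Over the 35 libraries per lay between 0.315 and 9.68 FPKM, a ratio of 30.7, on 47 to 1814 reads per library. Its mean exceeded that of 47.7% of the genes in the table, and it reached 1 FPKM in 23 libraries. The level of cwo lay between 4.25 and 17.7 FPKM, a ratio of 4.17, on 399 to 2892 reads, with a mean above that of 77.4% of genes. Per kilobase, cwo was thus the higher of the 2 genes in every group, while per had the wider range.

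In the 20E baseline per stood at 0.815, 0.542, 0.517, 0.731 and 0.433 FPKM in replicates 1 to 5 (0.608 ± 0.159, SD, n = 5). In the JH3 baseline it stood at 6.48, 7.16, 9.24 and 3.72 FPKM in replicates 1 to 4 (6.65 ± 2.28, n = 4). Every JH3 library was above every 20E library, and the ratio of the means was 10.9. The level of cwo was 4.25, 6.29, 5.21, 5.38 and 6.65 FPKM in the 20E baseline (5.56 ± 0.946, n = 5). It was 17.7, 15.4, 16.0 and 12.6 FPKM in the JH3 baseline (15.4 ± 2.10, n = 4). Here too the groups did not overlap, and the ratio of the means was 2.8. A separation in this direction was seen in 6.87% of the 9873 genes tested, and nothing is read from it for genes selected on these values. The fitted difference, 20E minus JH3 on the log2(FPKM + 1) scale, was -2.18 (SE 0.20) for per and -1.35 (SE 0.15) for cwo. For per it was -2.05 within run A and -2.32 when only runs B and C were fitted, and for cwo -1.30 and -1.40. The added 1 FPKM understates the difference of a gene as low as per: with 0.1 in its place the value was -3.20, and limma's voom on recovered reads gave -3.41. JH3 baseline replicate 4 held the lowest level of both genes in its group. Without it and without replicate 5 at 30 min of 20E, the difference was -2.43 for per and -1.42 for cwo. Leaving out the lowest JH3 baseline library by itself widens this difference, and the pair was chosen with earlier results of these data known.

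**Figure D1:**
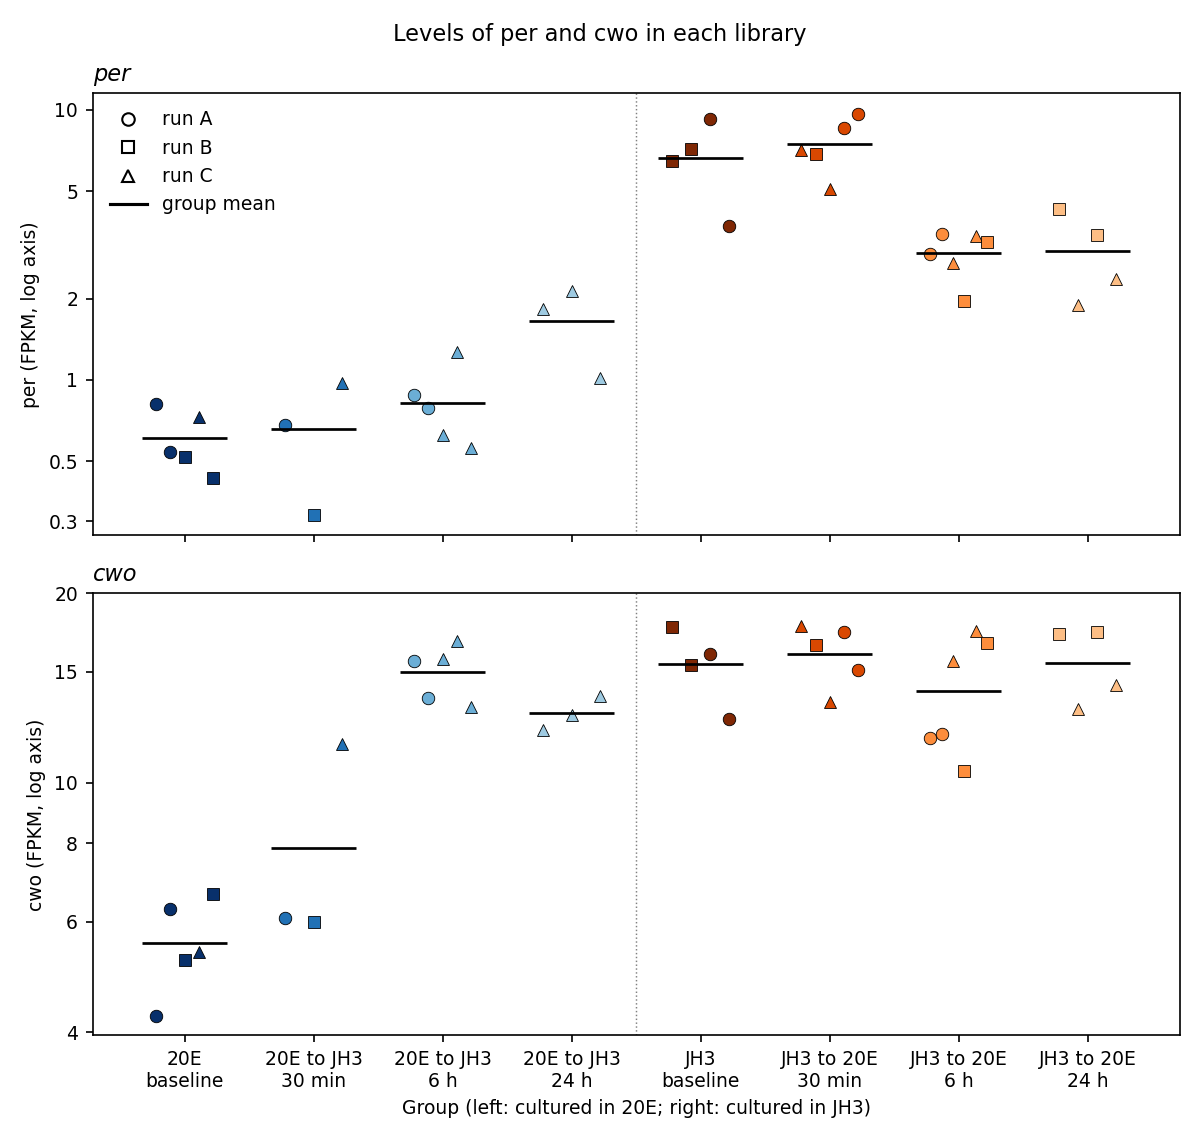
Levels of per (upper panel) and cwo (lower panel) in FPKM on log axes, 1 point per library, with the shape of the point giving the sequencing run and bars giving group means. In per the JH3-cultured libraries lie between 1.89 and 9.68 and the 20E-cultured ones between 0.315 and 2.13, while in cwo the 20E baseline and 2 of the 3 libraries given JH3 for 30 min lie below 7 FPKM and all other groups above 10.

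Exchanging JH3 for 20E was followed by a lower level of per at 6 h and 24 h, while cwo overlapped its baseline at each time. After 30 min per was at 7.12, 6.84, 5.08, 8.57 and 9.68 FPKM, which overlapped the baseline, with a fitted difference of 0.21 (SE 0.20). After 6 h the lowest of the 6 libraries was at 1.96, the median at 3.08 and the highest at 3.48 FPKM (2.96 ± 0.568, n = 6). All 6 libraries were below the lowest baseline library, 2.3 times lower by the means, and the fitted difference was -0.88 (SE 0.19). Ranges that stood apart downwards were found in 0.425% of genes at this time. After 24 h per was at 4.28, 1.89, 3.43 and 2.37 FPKM (2.99 ± 1.07, n = 4), with a difference of -0.85 (SE 0.22). These 4 libraries were below the mean of the baseline but overlapped it through baseline replicate 4. Between 6 h and 24 h the level differed by 0.03 (SE 0.19) on the log2 scale. The 24 h libraries of run B, at 4.28 and 3.43 FPKM, were above those of run C, at 1.89 and 2.37 FPKM. After 24 h in 20E per was still 4.92 times as high as in the 20E baseline, 1.33 (SE 0.20) on the log2 scale, with no overlap. Upward separation in that comparison was found in 10.2% of genes.

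In the same cultures cwo was at 17.7, 16.5, 13.4, 17.4 and 15.1 FPKM after 30 min of 20E. After 6 h the lowest library was at 10.4, the median at 13.8 and the highest at 17.4 FPKM (13.98 ± 2.95, n = 6). After 24 h it was at 17.3, 13.1, 17.3 and 14.3 FPKM (15.5 ± 2.13, n = 4). All of these ranges overlapped that of the JH3 baseline, and the fitted differences were 0.03 (SE 0.15), -0.18 (SE 0.15) and -0.08 (SE 0.17) in order of time. After 24 h of 20E cwo was 2.79 times as high as in the 20E baseline, a difference of 1.27 (SE 0.15), and the ranges were apart, as were those of 10.2% of genes upwards.

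Exchanging 20E for JH3 was followed by a higher level of cwo at 6 h and 24 h, while per overlapped its baseline at 6 h and lay above it at 24 h. After 30 min cwo was at 6.08, 6.00 and 11.5 FPKM in replicates 1 to 3. Replicate 3 alone lay above every baseline library, and the difference of 0.38 (SE 0.16) was 0.12 without it. In that library Kr-h1 was at 7.10 FPKM, within the range of the 20E baseline (3.26 to 14.5 FPKM). After 6 h cwo was at 15.6, 13.6, 15.7, 16.8 and 13.2 FPKM (14.98 ± 1.52, n = 5). All 5 libraries were above every library of the 20E baseline, by 2.70 times in the means and 1.28 (SE 0.15) in the fit. At this time 0.203% of genes had ranges apart upwards. After 24 h cwo was at 12.1, 12.8 and 13.7 FPKM (12.9 ± 0.817, n = 3), which was 2.32 times the baseline, 1.01 (SE 0.18), again without overlap. At 24 h 3.50% of genes had ranges apart upwards. The 24 h value was 0.27 below the 6 h value on the log2 scale (-0.27, SE 0.17). Both times overlapped the JH3 baseline, from which cwo differed by -0.07 (SE 0.16) at 6 h and -0.34 (SE 0.19) at 24 h.

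For per in the 20E cultures the values after 30 min of JH3 were 0.681, 0.315 and 0.973 FPKM. After 6 h they were 0.878, 0.787, 0.625, 1.27 and 0.561 FPKM (0.825 ± 0.280, n = 5). Neither time stood apart from the 20E baseline, with differences of 0.04 (SE 0.21) and 0.20 (SE 0.19). After 24 h the values were 1.83, 2.13 and 1.02 FPKM (1.66 ± 0.574, n = 3). The 3 libraries were above every library of the 20E baseline, by 2.73 times in the means and 0.79 (SE 0.23) in the fit, with the lowest of them at 1.02 and the highest baseline library at 0.815 FPKM. Upward separation was found in 3.50% of genes. All 3 came from run C, whose single 20E baseline library, replicate 4, had per at 0.731 and cwo at 5.38 FPKM. On the log2 scale the 24 h level was 0.59 (SE 0.22) above that at 6 h, and the ranges overlapped. After 24 h in JH3 per was 4.0 times lower than in the JH3 baseline, -1.39 (SE 0.25), and after 6 h 8.1 times lower, -1.98 (SE 0.21), in both cases without overlap. Downward separation was found in 12.0% and 6.88% of genes in those comparisons.

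**Figure D2:**
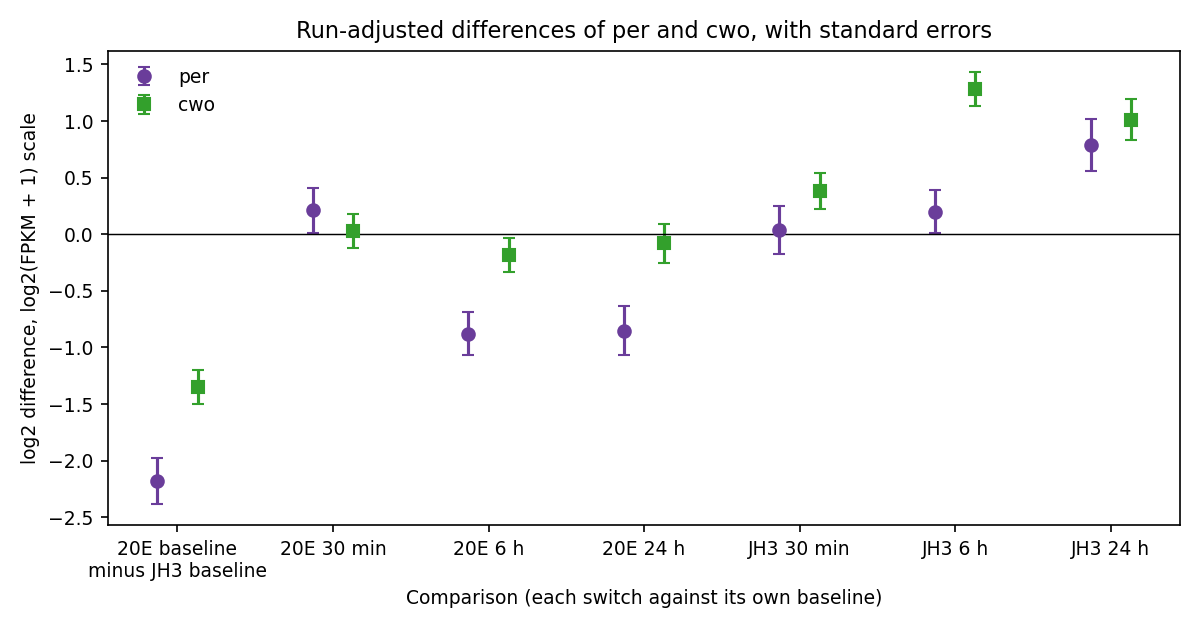
Run-adjusted differences of per (circles) and cwo (squares) on the log2(FPKM + 1) scale, for the 2 baselines and for each switch against its own baseline; bars are standard errors. At 6 h per stands at -0.88 under 20E and 0.20 under JH3, and cwo at -0.18 under 20E and 1.28 under JH3.

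At a matched time, the change under 20E minus that under JH3 was negative for both genes. Each side of this difference was taken against that switch's own earlier baseline. A change with time in fresh medium that both switches shared would therefore be part of both sides and cancel in their difference. The share of such a change in each side was not tested, since the later times had no DMSO group. The sides are given as a description. At 6 h the change under 20E minus that under JH3 was -1.08 (SE 0.27) for per, of which the 20E side gave -0.88 and the JH3 side 0.20. With voom on recovered reads these sides were -1.09 and 0.45. For cwo it was -1.46 (SE 0.20), of which the JH3 side gave 1.28 and the 20E side -0.18. At 24 h the difference of the switches was -1.64 (SE 0.30) for per and -1.09 (SE 0.23) for cwo. For per the 20E side gave -0.85 and the JH3 side 0.79, and with voom -1.06 and 1.53. For cwo the 20E side gave -0.08 and the JH3 side 1.01. Within runs B and C the 24 h values were -1.76 and -1.13, and at 6 h the within-run values were -0.86 (run A) and -1.25 (runs B and C) for per and -1.58 and -1.40 for cwo. The comparisons of one switch share their baseline libraries, and the difference of the switches uses both baselines.

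The ratio of cwo to per, both in FPKM, placed the same values on 1 scale. At baseline it was 9.92 ± 3.90 (n = 5) in 20E and 2.50 ± 0.723 (n = 4) in JH3, and the ranges of 5.21 to 15.4 and 1.73 to 3.40 were apart. In the 20E cultures the ratio was 13.3 ± 5.20 after 30 min of JH3, 19.4 ± 4.89 after 6 h and 8.71 ± 4.15 after 24 h. It was highest when cwo was already at the level of JH3 cultures and per was not. In the JH3 cultures the ratio was 2.23 ± 0.436 after 30 min of 20E, 4.80 ± 0.878 after 6 h and 5.52 ± 1.25 after 24 h. The 6 h and 24 h ranges, 3.44 to 5.76 and 4.04 to 6.94, lay above the whole range of the JH3 baseline.

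**Figure D3:**
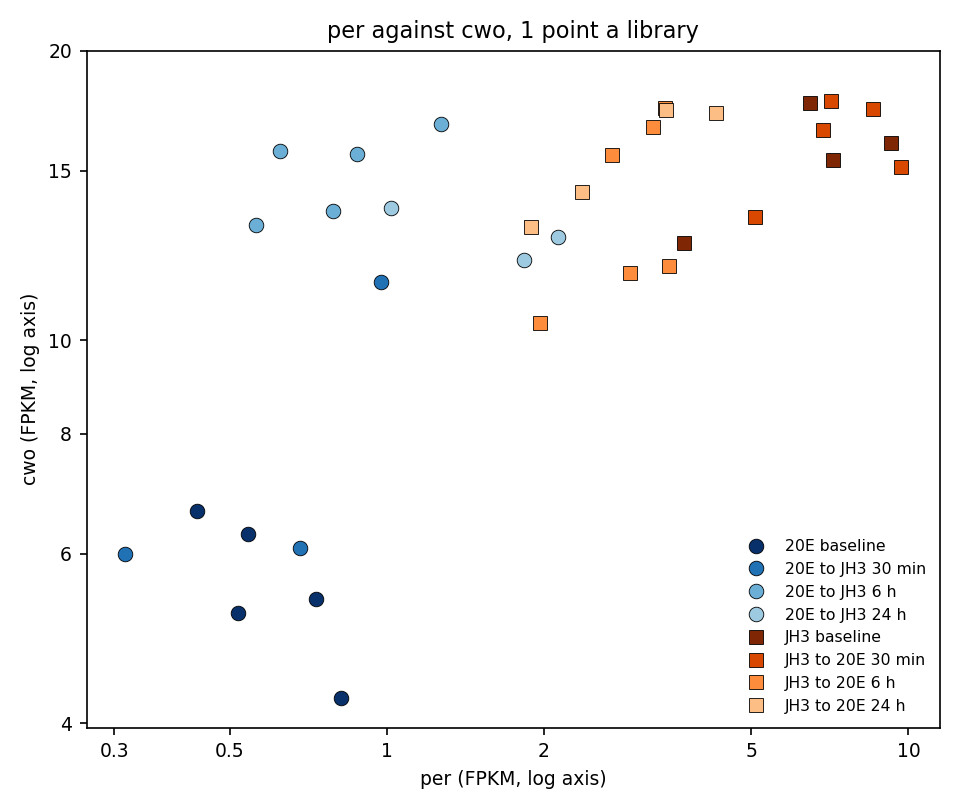
Level of per against that of cwo, both in FPKM on log axes, 1 point per library (circles, 20E cultures; squares, JH3 cultures; lighter shades for longer times). The 5 libraries given JH3 for 6 h lie at 13.2 to 16.8 FPKM of cwo, as high as JH3 cultures, with per at 0.561 to 1.27 FPKM.

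By mean level, per was lowest in the 20E baseline and then increased in the order JH3 for 30 min, 6 h and 24 h in 20E cultures, 20E for 6 h and 24 h in JH3 cultures, the JH3 baseline and 20E for 30 min. Of the 7 steps between neighbours, the 3 that exceeded the larger SD of the neighbours were from JH3 6 h to JH3 24 h, from there to 20E 6 h, and from 20E 24 h to the JH3 baseline. The ranges of all neighbours overlapped. For cwo the order was the 20E baseline, JH3 for 30 min and 24 h in 20E cultures, 20E for 6 h, JH3 for 6 h, the JH3 baseline, and 20E for 24 h and 30 min. One step, from JH3 30 min to JH3 24 h, exceeded the larger SD and was without overlap. The groups above it did not differ from their neighbours beyond their spread.

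The libraries taken 30 min after a switch did not differ beyond their spread from their own baselines in per, and compared the 2 kinds of culture in libraries other than the baselines. Both genes were selected on these libraries too, so they are no separate support for the difference between the baselines. The comparison was added after the data were seen. Among them per was 11.4 times lower in 20E cultures than in JH3 cultures (0.657 ± 0.330, n = 3, against 7.46 ± 1.76 FPKM, n = 5), a difference of -2.34 (SE 0.21). For cwo the means differed by 2.0 times (7.87 ± 3.16 against 16.0 ± 1.77 FPKM), and leaving out 1 library at a time the fitted difference lay between -1.28, without replicate 3 of the 20E cultures, and -0.83. The ranges of both genes were apart, as were those of 10.6% of genes in that direction.

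A list of 32 genes of the clock and its output was read beside per and cwo, and 19 of them were found by symbol, 17 besides those 2. Of the 17, 16 passed the filter of at least 1 FPKM in at least 3 libraries and were tested with limma, with Benjamini-Hochberg adjusted p-values over all 9873 genes tested. The symbols tim, cry, cry2, vri, Pdp1, dbt, sgg, CkIalpha, jet, Usp8, Atx2, unf and norpA had no match among the symbols used here and were not analysed here. The roles named below are those known from Drosophila.

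Between the baselines 2 of the 16 were higher in 20E cultures, 2 were lower and 12 were not called. Over all genes 21.1% were called in that comparison, and the median difference was 0.01 in the list and 0.00 in all genes. The receptor of the clock neuropeptide, Pdfr, was at 2.14 ± 0.766 FPKM in the 20E baseline and 5.49 ± 1.91 in the JH3 baseline, a log2 difference of -1.08 (SE 0.21, limma adjusted p = 0.000328) with no overlap. Ranges were apart downwards in 6.87% of genes. The neuropeptide gene itself, Pdf, was at 0.323 ± 0.185 and 1.79 ± 1.99 FPKM, a difference of -0.88 (SE 0.28, limma adjusted p = 0.0267), on 3 to 94 reads per library over the series. Its 4 JH3 baseline libraries were at 4.73, 1.20, 0.857 and 0.373 FPKM, and without the first of them the difference was -0.48 (adjusted p = 0.227). Leaving out replicate 3 (0.0627) or replicate 4 (0.0566) of the 20E baseline also ended the call of Pdf. The RNA-binding protein gene lark was at 190.5 ± 29.6 FPKM in the 20E baseline and 133.0 ± 17.0 in the JH3 baseline, 0.49 (SE 0.11, limma adjusted p = 0.002), with no overlap. Ranges were apart upwards in 4.93% of genes. The kinase gene nmo was at 31.1 ± 14.4 and 16.5 ± 3.78 FPKM, 0.78 (SE 0.26, limma adjusted p = 0.0295). That call did not survive leaving out replicate 4 (0.0994) or 5 (0.0501) of the 20E baseline, nor replicate 1 (0.0888) or 3 (0.144) of the JH3 baseline. The calls of Pdfr and lark held without any one library. Within run A, with 2 libraries a group, the differences were -1.06 for Pdfr (limma adjusted p = 0.196), 0.43 for lark (0.386), 0.87 for nmo (0.171) and -0.23 for Pdf (0.606), and none was called. Within runs B and C Pdfr, lark and Pdf were called and nmo was not (0.64, adjusted p = 0.351).

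Neither activator was called between the baselines. Clk was at 11.8 ± 2.87 FPKM in the 20E baseline and 8.38 ± 0.979 in the JH3 baseline (0.39, SE 0.19, limma adjusted p = 0.151). Its partner cyc did not pass the filter, at 0.131 to 0.714 FPKM over the 35 libraries on 8 to 58 reads. The gene slmb, whose ubiquitin ligase subunit binds Period for its degradation, was at 18.9 ± 3.38 and 24.9 ± 4.34 FPKM (-0.38, SE 0.15, limma adjusted p = 0.0648). The other uncalled genes of the list lay between -0.35 (Mef2) and 0.20 (tws).

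After the switches few list genes were called. With 20E for 24 h, 1 of the 16, Clk, was called, beside 5.22% of all genes. In the JH3 baseline Clk was at 7.06, 9.31, 8.88 and 8.27 FPKM and after 24 h of 20E at 14.7, 19.0, 12.9 and 17.4 FPKM. The groups were apart, as were those of 9.42% of genes upwards, the mean level rose 1.91 times, and the log2 difference was 0.76 (SE 0.21, limma adjusted p = 0.0294). The call was lost without JH3 baseline replicate 1 (0.67, adjusted p = 0.138), without replicate 1, 2 or 4 of the 24 h libraries (0.0751, 0.0781 and 0.065) and within runs B and C (0.79, adjusted p = 0.0934). The difference of the switches for Clk at 24 h was 0.90 (SE 0.29, limma adjusted p = 0.101). No list gene was called by limma after 20E for 30 min or 6 h, where 0% and 0.506% of all genes were called. None was called after JH3 for 30 min, 6 h or 24 h, where 0%, 0.0506% and 0.243% were. None was called in the difference of the switches at 6 h or 24 h, where 0.233% and 3.02% were. At an unadjusted p under 0.05 the list then had 0 and 0 genes after 20E, 1, 2 and 0 after JH3, and 1 and 1 in the differences of the switches. Over all genes there were 168, 420, 1008, 755, 1159, 509 and 1469 at that level in the same order, and voom on recovered reads called 0, 45, 0, 5, 23, 23 and 284.

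Among the libraries taken 30 min after a switch, 1 of the 16 was higher in 20E cultures, 4 were lower and 11 were not called, beside 19.7% of all genes. Pdfr was again lower in 20E cultures (1.69 ± 0.709 against 5.90 ± 1.86 FPKM, -1.34, SE 0.22, limma adjusted p = 7.23e-05). Within run A that difference was -0.50 and was not called (limma adjusted p = 0.766), nor was any other list gene there. Also lower were slmb (-0.63, limma adjusted p = 0.00559), the phosphatase subunit gene wdb (-0.35, 0.0226) and the transcription factor gene Mef2 (-0.94, 0.0194). The gene lark was again the higher one (0.39, limma adjusted p = 0.0246). The calls of slmb, wdb, lark and Mef2 were each lost when replicate 2 of the 20E cultures was left out (adjusted p = 0.0685, 0.129, 0.14 and 0.15). Those of wdb and Mef2 were also lost without replicate 2 of the JH3 cultures given 20E (0.0828 and 0.0659). That of wdb was also lost without replicate 3 of the 20E cultures (0.0914), and that of lark without replicate 1 of the 20E cultures (0.0613) or replicate 5 of the JH3 cultures (0.0529). Under quantile normalization the calls of wdb and lark were lost as well (limma adjusted p = 0.0595 and 0.0951). The comparison among these 30 min libraries was added after the data were seen.

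**Figure D4:**
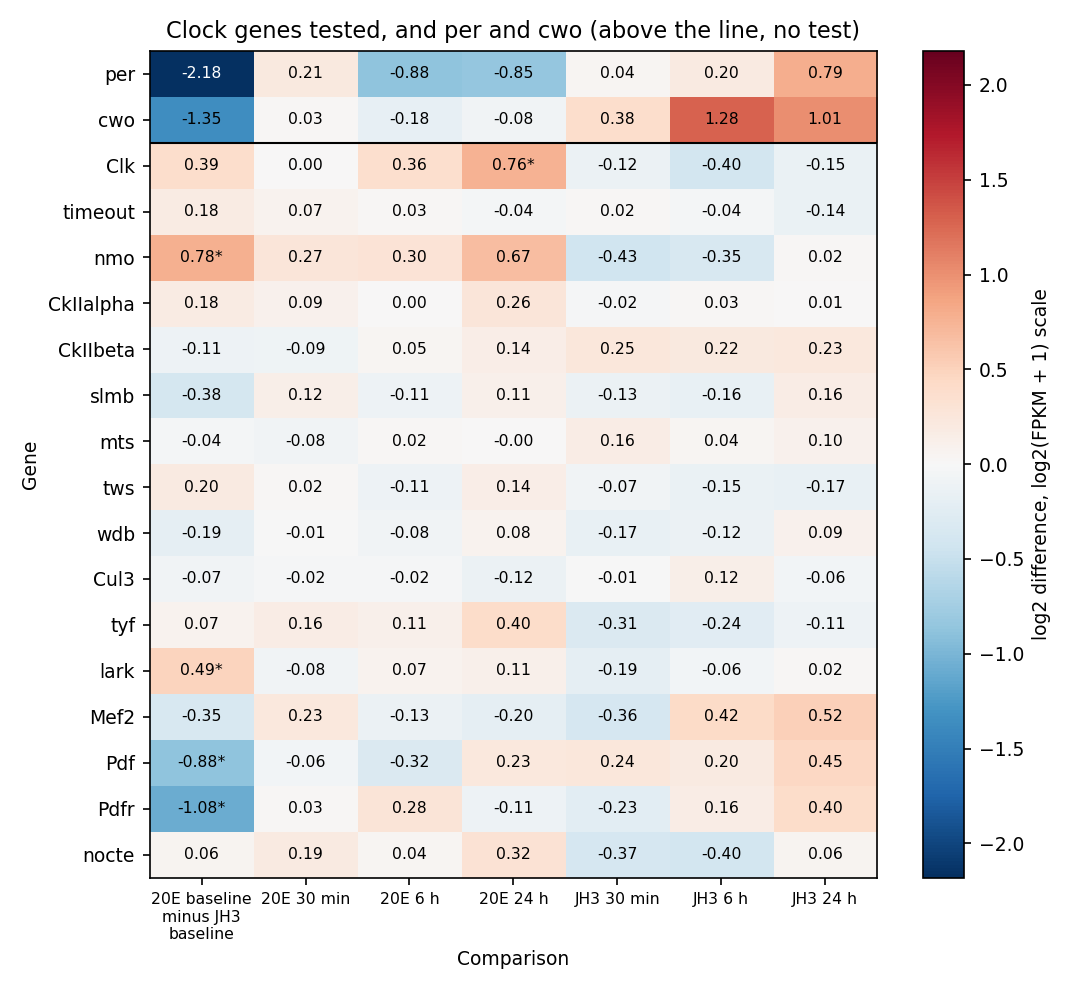
Log2 differences of per, cwo and the 16 clock list genes tested, on the log2(FPKM + 1) scale, in 7 comparisons (red, higher; blue, lower); an asterisk marks a limma adjusted p under 0.05 for the list genes, while per and cwo were not tested. The list genes hold 4 calls between the baselines and 1, Clk at 0.76, after 20E for 24 h.

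The classical hormone targets are set beside the 2 clock genes for scale. Mean E75 was 45.0 ± 11.8 FPKM in the JH3 baseline, 46.9 ± 5.50 after 30 min of 20E, 488 ± 69.7 after 6 h and 517 ± 96.0 after 24 h, against 79.1 ± 13.6 in the 20E baseline. Mean Kr-h1 was 8.40 ± 4.19 FPKM in the 20E baseline, 6.99 ± 1.33 after 30 min of JH3, 60.5 ± 39.8 after 6 h and 61.3 ± 34.8 after 24 h, against 27.5 ± 13.3 in the JH3 baseline. At 30 min both means were below those of cultures kept in the same hormone. At 6 h and 24 h both stood above them, for Kr-h1 at 6 h with overlap (25.0 to 117.8 against 14.0 to 40.7 FPKM). At 24 h of JH3 the lowest of the 3 Kr-h1 libraries, at 40.8 FPKM, barely exceeded the highest JH3 baseline library, at 40.7 FPKM. In the opposite switch mean Kr-h1 was also above the JH3 baseline, at 45.8 ± 12.9 FPKM after 6 h of 20E and 49.0 ± 8.33 after 24 h. Both ranges overlapped that baseline. By mean, per after 6 h and 24 h of 20E stood between the baselines, as did the hormone genes Hr4, Eip93F and ftz-f1. Among the 11 hormone genes read here, the others did not at both times. Hr4 was at 5.30 FPKM in the JH3 baseline, 17.3 and 51.8 after 6 h and 24 h of 20E, and 81.2 in the 20E baseline. The level of cwo after 6 h and 24 h of JH3 overlapped the JH3 baseline, at 24 h near its lower end. After 30 min of JH3 mean cwo was 7.87 ± 3.16 FPKM (n = 3), against 15.4 ± 2.10 in the JH3 baseline. The receptor gene usp, whose group means were among the more like per, was at 47.7 ± 11.01 FPKM in the JH3 baseline, 52.96 ± 10.7 after 6 h of 20E and 19.6 ± 4.99 after 24 h, against 9.08 ± 3.49 in the 20E baseline. At 6 h usp overlapped the JH3 baseline where per did not.

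Likeness of pattern was measured by Pearson's r over the 8 run-adjusted group means, over genes with a symbol, and is a description over 8 points that share their libraries. The 5 genes most like per were Vps4 (0.98), Fbxo42, Cul2, Arl5 and AMPdeam (each 0.97). The 5 most like cwo were ida (0.96), CSN4 (0.95), CSN6 (0.95), Vps33B (0.94) and CycK (0.94). The r of per with cwo was 0.73, and 15.9% of the other 9872 genes were more like per and 5.94% more like cwo. Of the hormone genes, usp had an r of 0.92 with per and Kr-h1 one of 0.85 with cwo, while Kr-h1 had 0.42 and E75 -0.06 with per. In the clock list slmb (0.90) and Pdfr (0.88) were the most like per, and Pdf and Pdfr (each 0.74) the most like cwo.

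The spread of the 2 genes within groups is given as a description, without a test, since both were selected on these libraries. Each library's log2(FPKM + 1) minus its group mean had a Pearson r of 0.46 and a Spearman rho of 0.37 between per and cwo, over 35 libraries. Without the 2 libraries farthest from the median of per, r was 0.35 and rho 0.28. Without JH3 baseline replicate 4 and replicate 5 at 30 min of 20E, r was 0.44 and rho 0.39, and leaving out 1 library at a time r ran from 0.40 to 0.52. Within runs A, B and C r was 0.33 (11 libraries), 0.69 (10) and 0.63 (14), and with run effects also removed it was 0.57. A trend of each library's expression with gene length moved with both genes: its deviations had an r of 0.40 with those of per and 0.33 with those of cwo. With run effects and this trend both removed, the r of per with cwo was 0.49, against 0.57 with run effects removed. Among all genes 9.81% were more like per and 4.85% more like cwo in their deviations. The 5 named genes whose deviations were most like those of per were stmA (0.78), ksr (0.75), Pkc53E, Crk and Gfrl (each 0.72). For cwo they were Phm (0.77), Cbl (0.75), smash (0.75), ssh (0.73) and Nuak1 (0.73). In the clock list, slmb had an r of 0.68 with per, with 33 of 9872 genes more alike.

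**Figure D5:**
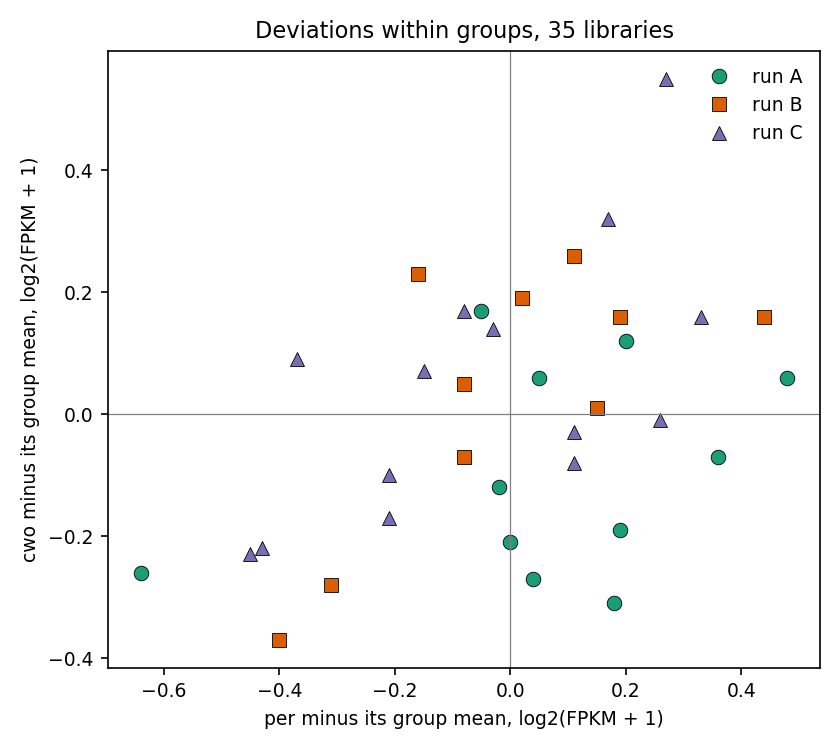
Deviation of each library from its group mean in per (horizontal) and cwo (vertical), on the log2(FPKM + 1) scale, with shape giving the sequencing run. Pearson's r is 0.46 over 35 libraries and 0.35 without the 2 libraries farthest from the median of per.

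Markers of the cell types that the cultures could hold were read in the same libraries. Of 8 neuronal markers 6 were found by symbol, and their summed level was 234 to 467 FPKM in the 20E baseline and 304 to 441 in the JH3 baseline. Of these, nSyb (-0.85) and Snap25 (-0.44), both of the synaptic vesicle fusion machinery, were called lower in the 20E baseline. Summed markers of glia (5 of 7 found) were at 36.7 to 49.7 and 31.4 to 60.4 FPKM, with Gs2 called lower (-0.69) and axo higher (0.89) in the 20E baseline. Those of photoreceptors (4 of 7 found) were at 2.35 to 10.9 and 2.88 to 13.4 FPKM and reached 87.5 in JH3 cultures given 20E for 30 min and 79.5 in those given it for 6 h. The library at 79.5 FPKM, replicate 5, had per at 3.42 FPKM and the highest cwo of its group, 17.4 FPKM. The library at 87.5 FPKM, replicate 1, had per at 7.12 FPKM and also the highest cwo of its group, 17.7 FPKM. The library with the largest photoreceptor sum also held the highest cwo in the JH3 baseline and after 24 h of JH3. It did not in the 20E baseline, after 30 min or 6 h of JH3, or after 24 h of 20E. Hemocyte and matrix markers (5 of 7) were at 25.4 to 34.6 and 19.1 to 30.9 FPKM with LanB2 higher (0.44), muscle markers (5 of 7) at 37.7 to 65.2 and 40.6 to 49.9 FPKM with Tm1 higher (0.46) and Mlc1 lower (-0.51), and the 1 fat body marker found at 1.91 to 3.29 and 1.61 to 6.06 FPKM. No marker found was at 0 in all libraries of a group. Of the 26 markers found 24 passed the filter and were tested, with 2 of the 4 photoreceptor markers left out. Between the baselines 7 of the 24 were called, beside 21.1% of all genes. By limma 0 of the 24 were called in either switch at 6 h, beside 0.506% of all genes under 20E and 0.0506% under JH3. Gs2 (0.85) was the 1 marker called after 20E for 24 h, beside 5.22% of all genes. Their part in the levels of per and cwo was not tested.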

How the data were processed

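PolyA RNA was sequenced strand-specifically (dUTP method, per the labels' protocols) from 35 primary cultures in 8 groups named in the sample titles; runs were read from a code in each sample's description. The authors deposited FPKM values for 14001 genes. Per the submitters' processing notes, which give no versions, bcl2fastq, STAR, featureCounts and DESeq2 were used. Neither coordinates nor sequences are printed, since the genome build is not given in the sources used here. Names came from RefSeq (Hsal_v8.6), which matched 13989 identifiers and gave 4117 symbols.

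Each gene's deposited FPKM values were steps of 1 read: 100.0% of nonzero values of 12800 genes lay within 0.03 of whole reads. Multiplied by a median-ratio size factor, the value of 1 read varied by 0.241% between libraries, and multiplied by total reads by 8.3%. Depth ran from 5937935 to 22650336 recovered reads, with a median of 10844871. The 63 replicate pairs differed beyond sampling noise (chi-square per gene at least 7.17), so none was merged.

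Log2(FPKM + 1) of the 9873 genes that reached 1 FPKM in 3 or more libraries was fitted genome-wide with limma 3.58.1 (R 4.3.3), on group and run, a trended prior and robust estimation. Tests were two-sided, with Benjamini-Hochberg adjusted p under 0.05. The fit and the recovery of reads were tested on simulated data. Deviations from group means were correlated as a description (scipy 1.17.1, numpy 2.4.6).

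The genes, the lists and the alternatives were chosen with earlier results of these data known. The genes named were per, cwo, every clock list member found, and the 5 with a symbol most like each gene by either measure; hormone genes stand beside them for scale and marker lists as a check of the cultures. The alternatives were a pseudocount of 0.1, no filter, quantile normalization, no run term, run A alone, runs B and C alone, the replicate number as a block, a length trend covariate, voom on recovered reads, and leaving out each library or a pair of libraries. The comparisons of 24 h with 6 h, with the opposite baseline and among the 30 min libraries were added after the data were seen. Run-adjusted log2 differences need not equal the ratio of the means printed beside them.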

Additional observations from a re-analysis of the deposited data

Results flagged for a closer look

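Among 60 groups of 4 to 6 libraries examined for 10 genes, 4 held a library far from the others of its group by Dixon's ratio, and chance gives about 1 in 20 groups. In JH3 cultures given 20E for 6 h, slmb was low in replicate 4, at 16.2 FPKM, the library that also held the lowest per (1.96 FPKM) and the lowest cwo (10.4 FPKM) of that group. Over all genes tested that library was also the least like its group, with a median Pearson r of 0.955, against 0.973 to 0.983 for the others. In the same group lark was high in replicate 3, at 153.4 FPKM, and Pdf was high in replicate 5, at 2.18 FPKM. In 20E cultures given JH3 for 6 h Pdf was high in replicate 3, at 1.68 FPKM. No group of 4 to 6 libraries of per or cwo held such a library. Groups of 3 were not examined; in one of them, 20E cultures given JH3 for 30 min, cwo was at 6.08, 6.00 and 11.5 FPKM.

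At 24 h every library given 20E had less per than the mean of the JH3 baseline, and every library given JH3 had more than the mean of the 20E baseline. The difference of the switches was -1.64 on the log2 scale. The libraries given 20E, up to 4.28 FPKM, overlapped the JH3 baseline, whose lowest library was at 3.72 FPKM. All 3 libraries given JH3 came from run C, which held 1 library of the 20E baseline. The share of all genes with such an opposition is not given here. This opposition was not tested, since per was selected on these libraries.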

How the results depend on the processing

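Of the 1012 values recomputed under the alternatives, 936 kept their direction and their side of the threshold or stayed within the spread between replicates, 40 moved and 36 lost a call. No called difference turned its sign. The sign turned in 16 values of per or cwo, whose size as reported was at most 0.21 on the log2 scale. The size of the differences in per depended on the added constant. With 0.1 in place of 1, and with voom on recovered reads, its difference was -3.20 and -3.41 between the baselines, 1.34 and 1.53 after JH3 for 24 h, -1.43 and -1.53 between the switches at 6 h, and -2.37 and -2.59 at 24 h. After 20E for 30 min per, at 0.21 as reported, was at 0.54 within run A, at -0.08 within runs B and C and at -0.12 without JH3 baseline replicate 4 and replicate 5 of that group. The list count between the baselines (4) was 0 within run A and 7 with the length trend as a covariate, which added slmb, wdb and Mef2. That after 20E for 24 h (1) was 0 within runs B and C. With the length trend Mef2 alone was called after JH3 for 6 h (0.73) and in the difference of the switches at 6 h (-0.98) and 24 h (-0.97), counts of 1 each. In the libraries taken 30 min after a switch (5) the count was 2 within runs B and C, and 0 within run A.

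Leaving out 1 library at a time moved per between -2.43 and -2.03 and cwo between -1.42 and -1.29 for the baselines, per between -1.13 and -0.72 after 20E for 6 h, and cwo between 1.22 and 1.35 after JH3 for 6 h. It moved cwo after JH3 for 30 min between 0.12 and 0.56, and in the 30 min libraries between -1.28 and -0.83. The list counts ran from 2 to 5, 0 to 1 and 1 to 5 for the baselines, 20E for 24 h and the 30 min libraries. The r of the deviations ran from 0.399 to 0.521.

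Replicate numbers did not pair the libraries: 37 of 105 pairs with the same number had correlated deviations over 0.1, with a median r of -0.000493 against 0.0175 for other pairs. With the replicate number as a block per differed by -2.20 and cwo by -1.37 between the baselines. The r of the deviations with run and block removed was 0.57, the same as with run alone removed. With the block 1 list gene, Clk, was called in the difference of the switches at 24 h (1.02, limma adjusted p = 0.0441). The block changed no other list count by over 1.5 times.

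Over all genes, between the baselines 2088 genes were called, 163 within run A and 3062 with the length trend. After 20E for 6 h and 24 h the counts of 50 and 515 ranged from 4 to 76 and from 272 to 738, and after JH3 for 6 h and 24 h those of 5 and 24 from 1 to 12 and from 6 to 237. The differences of the switches (23 and 298) ranged from 1 to 37 and from 201 to 635, and the 30 min libraries (1946) from 63 to 2688. After JH3 for 30 min, where none was called, leaving out 1 library gave up to 129. The 24 h comparisons have no fit within run A, which lacks libraries of 24 h. Low reads limit Pdf and cyc most.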
